A study of Mus musculus with 25 samples.

Results

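Insulin-like growth factor 1 (Igf1), its receptor (Igf1r) and 6 IGF-binding proteins (Igfbp2 to Igfbp7) were followed in mouse muscle after 2 kinds of injury. The 8 genes were taken by name, and each was represented by the probe set that the array's annotation assigned to that symbol alone, or by the brightest such probe set where there were several. Of the 8, 7 were measured this way, by 11 probe sets out of 12488 on the array, and 10 of the 11 passed a filter on low values that left 9506 probe sets for 6919 genes. Igfbp5 had no probe set of its own, because the only one that names it is also annotated to Tmem119. The samples were tibialis anterior muscles, a fast muscle at the front of the lower leg, from female C57BL/6J mice 2 to 3 months old. Freeze injury was made with a steel probe 6 mm across at the temperature of dry ice, held on for 10 s, and was studied after 6 hours (3 arrays), 1 day (3), 3 days (3) and 7 days (2). Contraction injury was made by 150 eccentric contractions in the living animal, in which the active muscle is lengthened, and was studied at the same 4 times, with 2 arrays for 1 day and 3 for each other time. The control was uninjured muscle with 3 arrays, which gave 25 arrays in 9 groups. The labels do not say whether each sample came from a separate mouse, so p-values measure only the spread between these samples.

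IGF1 is a secreted growth factor that binds the IGF1 receptor, a tyrosine kinase, and signals through the PI3 kinase and AKT pathway. In muscle it is known for promoting protein synthesis, satellite cell proliferation and fibre growth, and it is made by muscle fibres, macrophages and other cells of injured muscle. The IGF-binding proteins hold IGFs in the extracellular fluid, slow their loss, and can limit or help their access to the receptor. IGFBP7 is a more distant relative that binds IGFs weakly.

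After injury the changes that passed the test were mostly after freeze, and they involved binding proteins and 1 of the 2 Igf1 probe sets. Of all probe sets tested, too, more were called after freeze than after contraction at each time. With all arrays these shares were 4.85%, 14.2%, 17.9% and 5.29% after freeze, earliest first, and 1.87%, 1.79%, 8.25% and 0.537% after contraction. Igfbp3 was higher after freeze at 1 day and 7 days. A second, dimmer probe set of Igf1 and one of Igfbp4 were higher after freeze at 3 days, and that of Igfbp4 also at 7 days, while the brighter probe set of either gene passed no test. Once 1 array was left out, Igfbp2 and Igfbp6 also passed comparisons of groups, Igfbp2 as higher after freeze at 3 days and Igfbp6 as lower after contraction at 3 days and higher after freeze than after contraction at 7 days. Igf1r, Igfbp7 and the brighter Igf1 and Igfbp4 probe sets passed no comparison with or without that array.

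That array bears on every result at 3 days. The sample labelled freeze at 3 days, number 436, correlated at 0.803 to 0.804 with the other 2 arrays of its group and at 0.947 to 0.952 with the 3 controls, over all probe sets on the log2 scale, while arrays of 1 group otherwise correlated at 0.939 to 0.976. Its summed signal of 15 macrophage markers was 423.4, below the 635 to 847.4 of the controls, and reached 30485.9 elsewhere in its group. It is kept under its label here, and results that rest on it are given with all 25 arrays and without sample 436. Leaving it out also narrowed the spread that all groups share, with a median residual SD over probe sets of 0.323 in place of 0.385 on the log2 scale, and calls at other times changed as well. Markers of mature fast fibres, 14 genes, summed to 150629 to 250974 in control muscle, but no other tissue was compared. The tissue label was thus not tested. Values are array signals that the authors computed with MAS5, and differences are on the scale of log2(signal + 13), which understates changes of dim probe sets. The number of arrays limits the precision. In whole muscle, fewer cells of a type and less RNA per cell cannot be told apart.

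**Figure D1:**
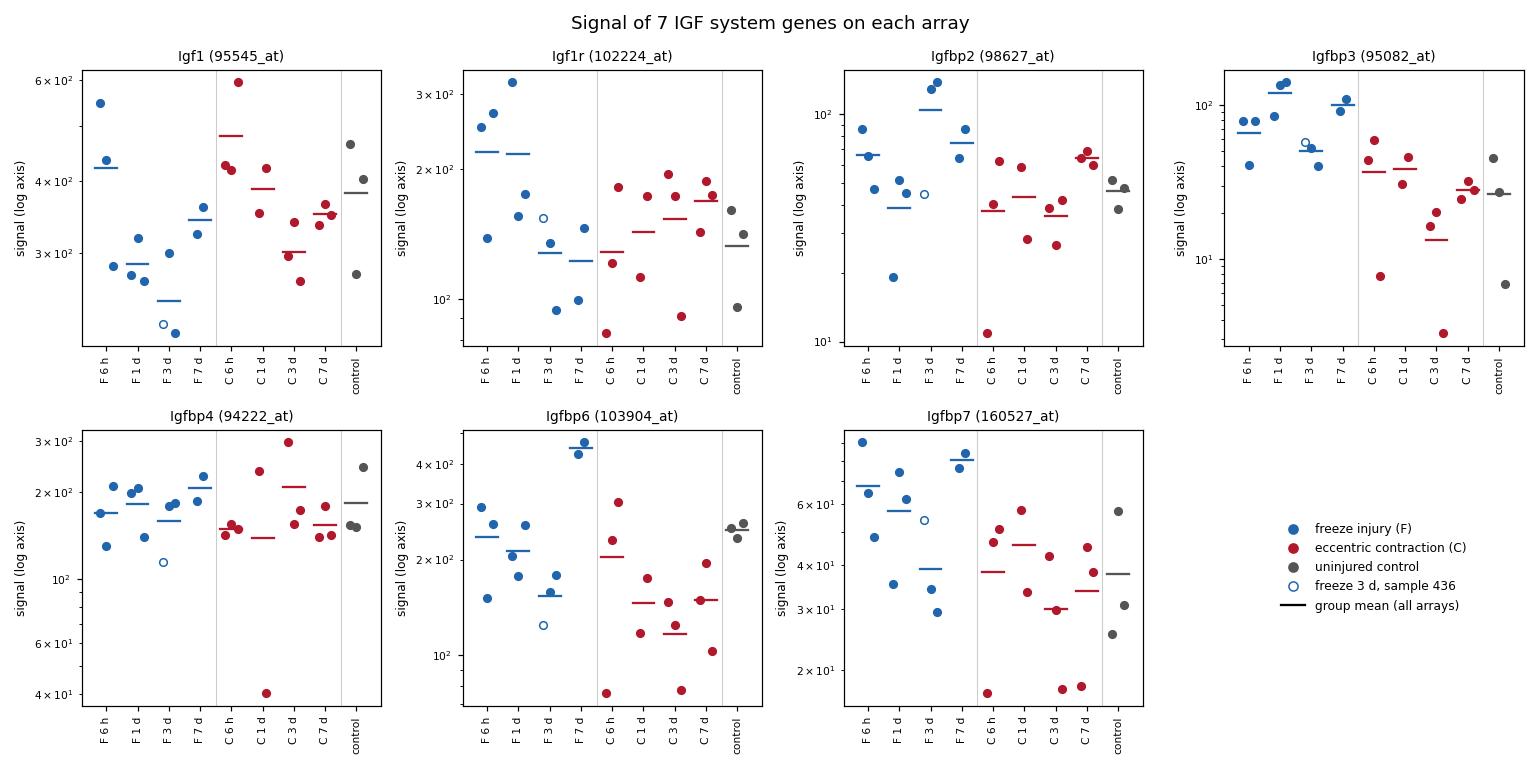
Signal (log axis) of the probe set that represents each of 7 genes, 1 point per array, with freeze groups (F) at the left, contraction groups (C) in the middle and control at the right. Short lines are group means over all arrays and the open point is sample 436. The Igfbp3 points of freeze at 1 day lie at 84.5 to 140.8, above the 3 controls at 6.9 to 45.4, and the Igfbp6 points of freeze at 7 days lie at 429.1 and 466.9, above those of every other group.

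The promoter windows of the 3 genes with several probe sets are shown here, since their probe sets gave the largest differences from control. RefSeq windows of 300 bases on the build GRCm38.p6, from 250 before the gene's start to 50 after it, were found for all 8 genes. Each was searched on both strands for TATAAA, the GC box GGGCGG, the E box CANNTG to which myogenic factors bind, and the AP-1 site TGANTCA. The Igf1 window is chr10:87860861-87861160 on the plus strand, that of Igfbp3 chr11:7213874-7214173 on the minus strand and that of Igfbp4 chr11:99040994-99041293 on the plus strand. Capitals mark every match to any of the 4 motifs.
Igf1: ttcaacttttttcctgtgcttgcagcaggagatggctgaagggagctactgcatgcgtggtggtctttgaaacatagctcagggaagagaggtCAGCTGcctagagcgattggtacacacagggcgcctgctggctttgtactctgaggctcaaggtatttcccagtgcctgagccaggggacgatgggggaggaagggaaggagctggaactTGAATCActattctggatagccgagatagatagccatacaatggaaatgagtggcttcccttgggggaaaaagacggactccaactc
Igfbp3: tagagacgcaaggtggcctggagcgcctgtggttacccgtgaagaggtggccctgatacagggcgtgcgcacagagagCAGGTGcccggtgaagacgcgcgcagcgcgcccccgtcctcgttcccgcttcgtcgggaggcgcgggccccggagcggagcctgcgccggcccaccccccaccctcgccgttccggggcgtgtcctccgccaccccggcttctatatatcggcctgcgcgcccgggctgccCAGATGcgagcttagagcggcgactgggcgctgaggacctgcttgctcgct
Igfbp4: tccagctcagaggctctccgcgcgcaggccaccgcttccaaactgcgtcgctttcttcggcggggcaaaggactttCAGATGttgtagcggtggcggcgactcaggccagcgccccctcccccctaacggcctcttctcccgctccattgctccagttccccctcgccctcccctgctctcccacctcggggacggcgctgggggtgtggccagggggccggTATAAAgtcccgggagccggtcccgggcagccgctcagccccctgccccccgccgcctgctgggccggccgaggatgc
The Igf1 window held 1 E box, 157 bases before the start, and 1 AP-1 site, 37 bases before it. The Igfbp3 window held 2 E boxes and the Igfbp4 window 1 E box and a TATAAA box 28 bases before the start. Of all 32851 mouse windows of this length, 13.6% held TATAAA, 35.7% the GC box, 72.3% an E box and 7.81% an AP-1 site. The arrays measured transcript levels and not binding at these windows.

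Igf1, the ligand, differed in course between its 2 probe sets, which the annotation assigns to the same sequence record. The brighter one, with signals above the 40th percentile of its array on all 25 arrays, represented the gene. It read 226, 300 and 217.9 after freeze at 3 days, against 465.6, 276.3 and 403.7 in control muscle, where the first value is that of sample 436. The groups overlapped, and the difference of -0.58 ± 0.22 (SE) did not pass the test (limma, adjusted p = 0.0704, or 0.0809 without sample 436). Over the 9 groups its means ran from 480.5 ± 99.7 after contraction at 6 hours (SD, n = 3) through 422.8 ± 131 after freeze at 6 hours to 248.0 ± 45.2 after freeze at 3 days, with control at 381.9 ± 96.5. No step between neighbours in that order exceeded the residual SD of 0.26 on the log2 scale. The difference from control at 3 days after freeze was called as a fall with quantile normalization (-0.63, limma, adjusted p = 0.0459) and without control sample 2 (-0.79, adjusted p = 0.0394).

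The dimmer Igf1 probe set was near the floor of the array in control muscle and was above the 40th percentile on 9 arrays in all. After freeze at 3 days it read 349.6 and 321.9 on the 2 arrays other than sample 436, which read 6.5, against 11.6, 5.8 and 28.0 in control muscle. It read 129.2 and 119.8 after freeze at 7 days, and 102.5, 59.0 and 79.8 after contraction at 3 days. Sample 436 thus lay among the controls, while the other arrays of these 3 groups lay above every control. All other groups stayed between 5.7 and 40.4. With all arrays the difference from control was 2.32 ± 0.72 after freeze at 3 days (limma, adjusted p = 0.0331), and that of 2.37 ± 0.81 at 7 days was not called (adjusted p = 0.0842), nor that of 1.78 ± 0.72 after contraction at 3 days (adjusted p = 0.118). Without sample 436 all 3 were called, at 3.71 ± 0.45 after freeze at 3 days (adjusted p = 5.06e-07), 2.37 ± 0.45 after freeze at 7 days (adjusted p = 0.000587) and 1.78 ± 0.40 after contraction at 3 days (adjusted p = 0.00217). No fold is given, since the control signals lay near the pseudocount, which then sets its size.

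The same probe set separated the injuries once sample 436 was left out. Freeze minus contraction was then 1.93 ± 0.45 at 3 days (limma, adjusted p = 0.00401) and 2.17 ± 0.45 at 7 days (adjusted p = 0.00373), where freeze read 129.2 and 119.8 and contraction 12.7, 38.3 and 8.7. With all arrays these were 0.54 ± 0.72 and 2.17 ± 0.81, and neither was called (adjusted p = 0.923 and 0.319). Within contraction the signal rose between 1 and 3 days by 1.59 ± 0.45 (adjusted p = 0.0253) and at 7 days was lower than at 3 days, by -1.58 ± 0.40 (adjusted p = 0.00959), both without sample 436. With all arrays neither step was called (adjusted p = 0.387 and 0.271). Across the 9 group means without sample 436 the 2 Igf1 probe sets, read on the same arrays, correlated at -0.646, which is only a description over 9 means. Which of the 2 probe sets follows Igf1 transcripts was not tested.

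**Figure D2:**
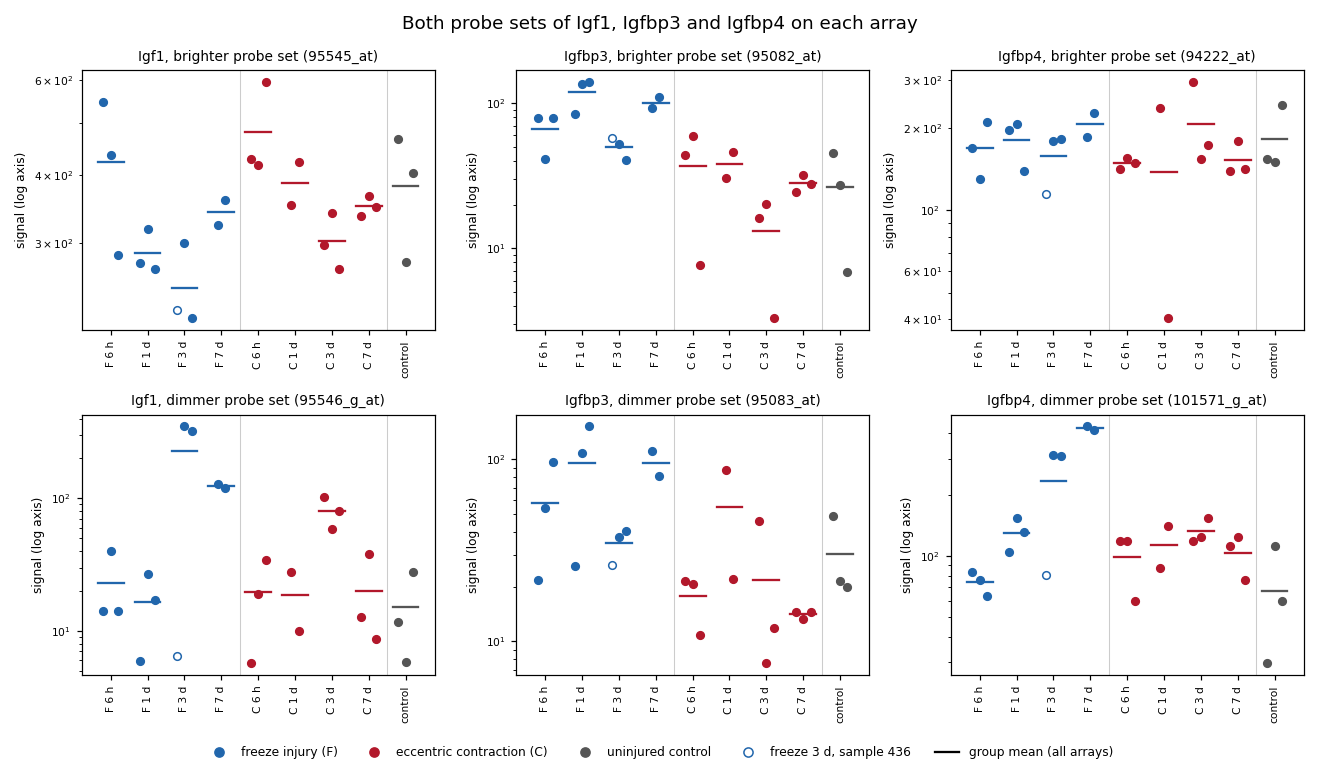
Signal (log axis) of both probe sets of Igf1, Igfbp3 and Igfbp4, 1 point per array, brighter probe set in the upper row, with freeze groups (F) at the left, contraction groups (C) in the middle and control at the right. Lines are group means over all arrays and the open point is sample 436. The dimmer Igf1 probe set stands at 321.9 and 349.6 after freeze at 3 days on the arrays other than 436, while the brighter one is at 300 and 217.9 there, below the control mean of 381.9.

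Macrophage markers were high where the dimmer Igf1 probe set was high, and also in groups where it was not, above all after freeze at 1 day. The 15 markers summed to 30485.9 at most after freeze at 3 days, 8423.5 to 9032.7 after freeze at 7 days and 9796 to 14865.7 after contraction at 3 days, against 635 to 847.4 in control muscle. They also summed to 6839.6 to 9761.3 after freeze at 1 day, where this Igf1 probe set read 5.9, 26.7 and 17. The sums lay above every control after freeze at 6 hours (2644.4 to 4863.1) and after contraction at 1 day (1473.6 to 2106) and 7 days (1807.5 to 3515.9). In those groups this Igf1 probe set read at most 40.4. Without sample 436 all 15 rose after freeze at 1 day and at 3 days, and 12 at 7 days. After contraction at 3 days 14 rose. With all arrays these counts were 11, 12 and 8 after freeze and 12 after contraction. None was at 0 in any group, and their part in the Igf1 signal was not tested.

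Igf1r, the receptor, passed the test against control at no time. Its highest means were 219.8 ± 71.0 after freeze at 6 hours and 216.8 ± 89.1 after freeze at 1 day (SD, n = 3 each), against 132.7 ± 33.4 in control muscle. The corresponding differences were 0.65 ± 0.33 and 0.62 ± 0.33 (limma, adjusted p = 0.319 and 0.211), and arrays overlapped. The other 6 injured groups had means of 122.6 to 168.5, and no step between neighbours in the order of levels exceeded the residual SD of 0.43. Freeze minus contraction at 6 hours was 0.72 with a 95% interval of 0.04 to 1.41 before adjustment and an adjusted p of 0.557.

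Igfbp3, the main carrier of IGFs in the circulation, was the one gene whose representative probe set was called against control with all arrays. This probe set, above the 40th percentile on 14 arrays, read 84.5, 135.1 and 140.8 after freeze at 1 day, against 45.4, 27.4 and 6.9 in control muscle. It read 91.9 and 109.3 after freeze at 7 days, 79.1, 41.0 and 78.4 after freeze at 6 hours, and 57.2, 52.7 and 40.4 after freeze at 3 days, where sample 436 gave the first value. At 1 and 7 days every freeze array lay above every control, while at 6 hours and 3 days the lowest freeze array fell below the highest control. The difference from control was 1.85 ± 0.41 at 1 day, 3.62-fold (limma, adjusted p = 0.0054), and 1.65 ± 0.46 at 7 days, 3.14-fold (adjusted p = 0.0397). Without sample 436 the adjusted p-values were 0.00152 and 0.0133.

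The call at 1 day held when each array was left out in turn. That at 7 days was lost without control sample 2 (1.73, limma, adjusted p = 0.0586) or control sample 3 (1.22, adjusted p = 0.154). Leaving out freeze sample 440 or 454 kept differences of 1.76 and 1.54 (adjusted p = 0.22 and 0.213), but then 1 freeze array remained, which is assumed to vary like the other groups. It was also lost with a pseudocount of 1 (adjusted p = 0.0811) and without a filter on low values (adjusted p = 0.0528). The lowest control, at 6.9, is the third sample.

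After contraction the same probe set stayed near control. Its group means were 37.0 ± 26.5 after 6 hours (SD, n = 3), 38.3 ± 11.0 after 1 day (n = 2), 13.3 ± 8.85 after 3 days and 28.1 ± 3.75 after 7 days (n = 3 each), against 26.6 ± 19.3 in control muscle. Every freeze mean lay above every contraction mean, and at 1, 3 and 7 days no freeze array overlapped a contraction array of the same time. Freeze minus contraction was 1.36 ± 0.46 at 1 day, 1.32 ± 0.41 at 3 days and 1.47 ± 0.46 at 7 days, yet none was called (limma, adjusted p = 0.148, 0.268 and 0.208, and 0.0606, 0.0661 and 0.0526 without sample 436). In the order of all 9 levels the step between freeze at 7 days and freeze at 6 hours, 0.56, was the one that exceeded the residual SD of 0.54.

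The second Igfbp3 probe set, assigned to another sequence record, varied alike, with a correlation of 0.889 over the 9 group means. It read 26.1, 108.7 and 151.8 after freeze at 1 day and 111 and 80.8 at 7 days, against 48.9, 21.4 and 19.8 in control muscle. At 1 day 1 of the 3 freeze arrays was as low as the controls, and at 7 days both were above. The differences of 1.16 ± 0.50 and 1.39 ± 0.56 were not called (limma, adjusted p = 0.121 and 0.137). At 7 days contraction read 14.6, 13.3 and 14.6, and freeze minus contraction was 1.99 ± 0.56, called without sample 436 (adjusted p = 0.0293) and not with it (adjusted p = 0.149).

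Cell markers and the actin ratio of 3′ to 5′ also differed from control in the groups where Igfbp3 was called, but not only there. At 1 day after freeze 8 neutrophil markers summed to 2037.8 to 3399.6 and 15 macrophage markers to 6839.6 to 9761.3, against 556.7 to 898.6 and 635 to 847.4 in control muscle. Of the 7 neutrophil markers tested only 2 rose there with all arrays, S100a8 and S100a9, and the median difference of the 7 was 0.03. Of the 15 macrophage markers 11 rose. The ratio of the 3′ to the 5′ actin probe sets was 1.01 to 1.31 after freeze at 1 day and 0.776 to 0.808 at 7 days, against 0.560 to 0.595 in control muscle. Markers of endothelium, 10 genes, summed to 2867.5 to 3015.1 after freeze at 1 day and 2054.4 to 2174.3 at 7 days, against 1920 to 2130.7 in control muscle. After contraction at 3 days, where the Igfbp3 mean was lowest, the actin ratio was 0.923 to 1.21. Macrophage markers summed to 9796 to 14865.7 there. The part of these shifts in the Igfbp3 signal was not tested.

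Igfbp4, a binding protein that restrains IGF action until proteases cleave it, also depended on the probe set. Its representative had means of 138.1 to 207.7 in the 8 injured groups, against 182.7 ± 52.7 in control muscle (SD, n = 3), and no difference was called. Contraction at 1 day held the widest pair of values, 235.8 and 40.3. With the lower of the 2 alone, sample 463, the difference from control was -1.84 and was called (limma, adjusted p = 0.00952), against -0.73 with both (adjusted p = 0.598). That single array is assumed to vary like the other groups.

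The second Igfbp4 probe set read 432.7 and 414.1 after freeze at 7 days, against 29.7, 111.4 and 59.8 in control muscle. After freeze at 3 days it read 314.1 and 308.4, and 80.9 on sample 436. After freeze at 1 day it read 105, 153.1 and 130.7, so that its level after freeze was higher at each later time on the arrays other than 436. Of these steps only that from 1 day to 3 days was called without sample 436, and none was with all arrays. The difference from control was 2.58 ± 0.44 at 7 days, 5.99-fold (limma, adjusted p = 0.00206), and 1.56 ± 0.40 at 3 days (adjusted p = 0.0164). Without sample 436 it was 2.58 ± 0.33 at 7 days (adjusted p = 7e-06), 2.15 ± 0.33 at 3 days (adjusted p = 1.3e-05) and 0.95 ± 0.30 at 1 day (adjusted p = 0.019).

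After contraction this probe set stayed nearer to control. It read 118.1, 123.9 and 153.5 at 3 days, all above the highest control at 111.4, and 111.4, 124.1 and 75.9 at 7 days. Its difference from control at 3 days was 0.98 ± 0.30 and was called without sample 436 (limma, adjusted p = 0.0183) but not with it (adjusted p = 0.116). Freeze minus contraction was 1.17 ± 0.33 at 3 days (adjusted p = 0.0158) and 1.93 ± 0.33 at 7 days (adjusted p = 0.000644) without sample 436. With all arrays it was 0.57 ± 0.40 and 1.93 ± 0.44, and neither was called (adjusted p = 0.819 and 0.0555). Fibroblast markers, 13 genes, summed to 22633.8 to 23089 after freeze at 7 days and to 14823.8 at most at 3 days, against 3240.1 to 5629.1 in control muscle, and their part in this signal was not tested. The third Igfbp4 probe set read at most 48.7, was above the 40th percentile on 1 array and was not tested.

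**Figure D3:**
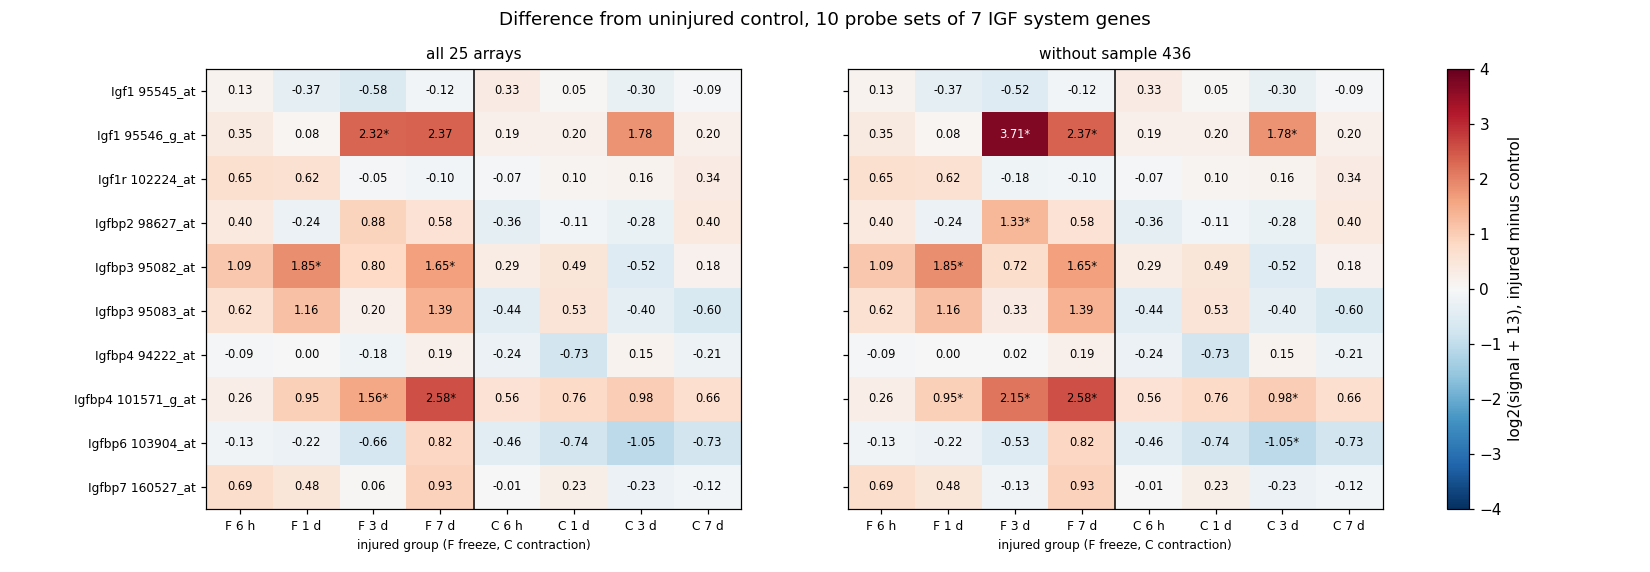
Difference from control, in log2(signal + 13), of 10 probe sets of 7 genes in the 8 injured groups, with all 25 arrays at the left and without sample 436 at the right. Stars mark an adjusted p under 0.05 and columns run from 6 hours to 7 days within freeze (F) and contraction (C). The deepest cell is the dimmer Igf1 probe set after freeze at 3 days, 3.71 without sample 436 and 2.32 with it.

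Igfbp2, a binding protein made by many growing tissues, was high on 2 of the 3 arrays of freeze at 3 days. They read 129.4 and 138.3, and sample 436 read 44.7, against 51.5, 38.3 and 47.5 in control muscle. Contraction at 3 days read 38.7, 26.5 and 42.1, so the 2 freeze arrays lay above every array of both other groups. Without sample 436 the difference was 1.33 ± 0.38 from control, 2.51-fold (limma, adjusted p = 0.00672), 1.60 ± 0.38 from contraction at 3 days (adjusted p = 0.00441) and 1.57 ± 0.38 from freeze at 1 day (adjusted p = 0.00474). With all arrays the same differences were 0.88 ± 0.39, 1.16 ± 0.39 and 1.12 ± 0.39, none of them called (adjusted p = 0.114, 0.315 and 0.179). The next levels were 75.1 ± 15.2 after freeze at 7 days (SD, n = 2), 66.0 ± 19.5 after freeze at 6 hours and 64.3 ± 4.51 after contraction at 7 days (n = 3 each), and without sample 436 the step below freeze at 3 days was the only one in the order over the residual SD, 0.75 against 0.44. In the same group, sample 436 included, macrophage markers summed to 30485.9 at most, against 635 to 847.4 in control muscle, and fast fibre markers to 42149.5 at least, against 150629 to 250974 in control muscle. Fibroblast markers there summed to 14823.8 at most and the actin ratio of 3′ to 5′ reached 1.09, against 3240.1 to 5629.1 and 0.560 to 0.595 in control muscle. Their part in the Igfbp2 signal was not tested.

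Igfbp6, a binding protein with a preference for IGF2, lay on opposite sides of control after the injuries at 7 days. It read 429.1 and 466.9 after freeze at 7 days and 149.3, 194.5 and 102.8 after contraction at 7 days, against 251.2, 233.8 and 260.4 in control muscle. Both freeze arrays lay above, and all 3 contraction arrays below, every control. Freeze minus contraction at 7 days was 1.55 ± 0.38 without sample 436, 2.93-fold (limma, adjusted p = 0.0128), and 1.55 ± 0.39 with all arrays, which was not called (adjusted p = 0.085). Against control neither group was called, at 0.82 ± 0.39 after freeze (adjusted p = 0.207) and -0.73 ± 0.35 after contraction (adjusted p = 0.534). Leaving out the contraction array at 6 hours numbered 417 also brought the difference between the injuries past the threshold (adjusted p = 0.0273).

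Within freeze, Igfbp6 was lowest at 3 days, at 158.4 and 178.7 and 124.9 on sample 436, and the step to 7 days was 1.48 ± 0.39 with all arrays (limma, adjusted p = 0.0817) and 1.35 ± 0.41 without sample 436, then called (adjusted p = 0.0269). After contraction its lowest level was also at 3 days, with 147.2, 124.4 and 77.5, all below the lowest control. That difference from control was -1.05 ± 0.35, not called with all arrays (adjusted p = 0.0623) and called without sample 436 (adjusted p = 0.0268). In the order of the 9 levels freeze at 7 days stood 0.82 above control, the next level, more than the residual SD of 0.46, and no other step was that large.

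The sum of fibroblast markers was high with Igfbp6 after freeze at 7 days, but it did not follow Igfbp6 at 3 days. The 13 markers summed to 22633.8 to 23089 after freeze at 7 days and 4387.4 to 8113 after contraction at 7 days, against 3240.1 to 5629.1 in control muscle. With all arrays 8 of the 13 rose after freeze at 7 days and none after contraction at 7 days. At 3 days, when Igfbp6 was at its lowest after either injury, the sums reached 14823.8 after freeze and 6214.6 to 7459 after contraction. None was at 0 in any group. Dcn, 1 of the 13, had the course most like that of Igfbp6 over the 9 group means, out of 6918 genes. It was not among the 8 that rose after freeze at 7 days with all arrays, but rose there without sample 436. As 1 gene picked by its likeness, it does not stand for the list. Its Pearson's r was 0.952 with all arrays and 0.915 without sample 436. The part of these markers in the Igfbp6 signal was not tested.

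Igfbp7, which is made by vessel walls among other tissues, was called in no comparison. It read 76.4 and 84.4 after freeze at 7 days, against 25.3, 57.4 and 30.7 in control muscle, so that both freeze arrays lay above the controls. The difference of 0.93 ± 0.39 had an adjusted p of 0.157 (limma), or 0.0926 without sample 436. The means of the other injured groups were 30.0 to 67.9, and no step between neighbours exceeded the residual SD of 0.44.

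Over the 7 measured genes, calls against control were few. With all 25 arrays, 2 of the 56 pairs of gene and injured group were called by limma at an adjusted p under 0.05, both of them Igfbp3, and 9 had an unadjusted p under 0.05. After freeze 0 of the 7 genes were called at 6 hours, when 4.85% of all probe sets tested were, 1 at 1 day, when 14.2% were, 0 at 3 days, when 17.9% were, and 1 at 7 days, when 5.29% were. After contraction 0 of 7 were called at any of the 4 times, when, from the earliest to the latest, 1.87%, 1.79%, 8.25% and 0.537% of all probe sets were. Without sample 436 the count over the 56 pairs was 4, with 0, 1, 1 and 1 of 7 over the 4 times after freeze, when 11.4%, 26.8%, 42.4% and 19.5% of all were called, and 0, 0, 1 and 0 after contraction, when 3.36%, 4.33%, 22.8% and 3.03% were. The median difference of the 7 genes from control was 0.58 after freeze at 7 days and -0.05 after freeze at 3 days with all arrays, against -0.06 and -0.09 over all probe sets.

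Between the injuries, 0 of 28 pairs of gene and time were called with all arrays by limma, and 7 had an unadjusted p under 0.05. Of all probe sets 0.305%, 1.45%, 0.389% and 0.368% were called as freeze minus contraction at the 4 times, earliest first. Without sample 436 the genes had 2 calls, Igfbp2 at 3 days and Igfbp6 at 7 days, and the shares of all probe sets were 2.36%, 10.1%, 16.9% and 7.27%. The median of the 7 genes for freeze minus contraction was 0.70, 0.52, 0.29 and 0.40 over the 4 times with all arrays, against 0.02, -0.04, -0.03 and -0.03 over all probe sets. These comparisons share no control, but each freeze group also enters a comparison with control.

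**Figure D4:**
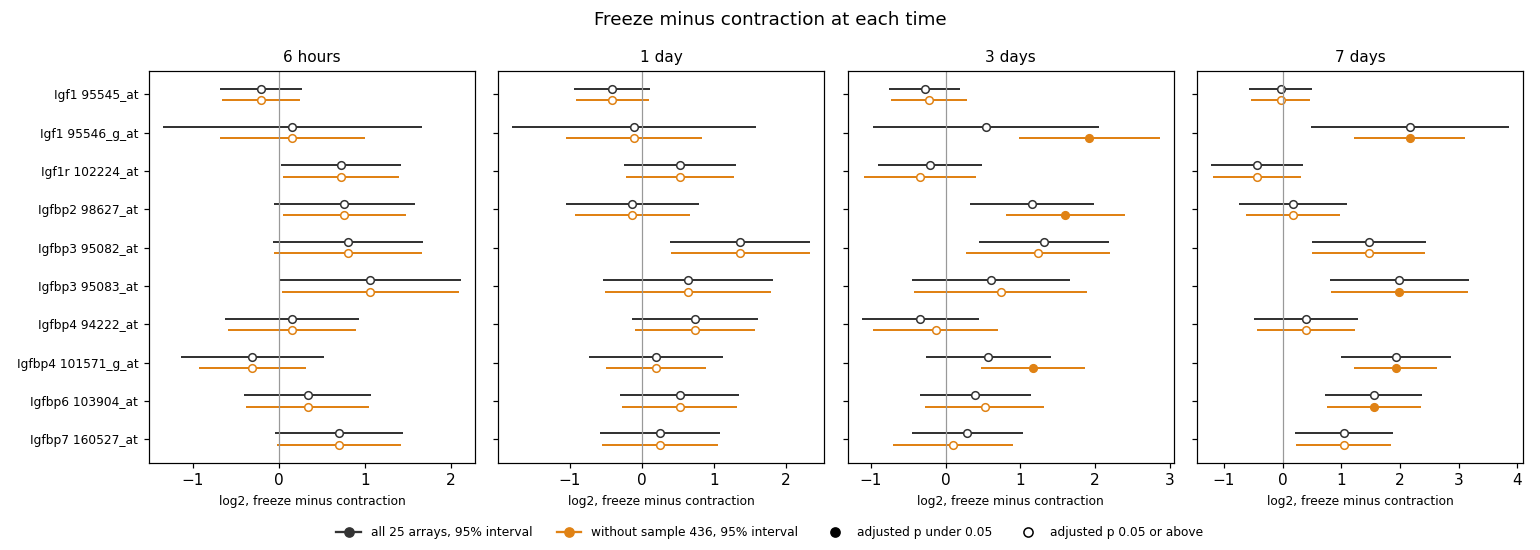
Freeze minus contraction, in log2(signal + 13), with 95% intervals before adjustment, of 10 probe sets at 4 times, with all 25 arrays (black) and without sample 436 (orange); each panel has its own axis range. Filled points have an adjusted p under 0.05. At 7 days filled points, all without sample 436, are the dimmer probe sets of Igf1 at 2.17, Igfbp3 at 1.99 and Igfbp4 at 1.93, and Igfbp6 at 1.55.

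From one time to the next, 0 of 42 pairs were called with all arrays by limma, and 7 had an unadjusted p under 0.05. For the steps to 1 day, 3 days and 7 days, 3.57%, 2.1% and 0.81% of all probe sets were called within freeze and 0.0421%, 1.16% and 0.842% within contraction. Without sample 436 there were 2 calls, Igfbp2 as higher after freeze at 3 days than at 1 day and Igfbp6 as higher after freeze at 7 days than at 3 days, when 14.7%, 18.1% and 17.1% of all probe sets were called within freeze and 0.526%, 9.72% and 13.1% within contraction. Of the dimmer probe sets, also without sample 436, that of Igf1 was higher after freeze at 3 days than at 1 day, by 3.63 ± 0.45 (adjusted p = 5.24e-06), and that of Igfbp4 by 1.20 ± 0.33 (adjusted p = 0.0125). With all arrays these were 2.24 ± 0.72 and 0.60 ± 0.40, neither of them called (adjusted p = 0.132 and 0.628).

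Limma's moderated F test asked whether a gene changed in any of the 8 injured groups. With all arrays 2 of the 7 genes passed, Igfbp3 (adjusted p = 0.00341) and Igfbp6 (adjusted p = 0.0276), when 26.2% of all probe sets did. Without sample 436 3 passed, Igfbp2 (adjusted p = 0.0119), Igfbp3 (adjusted p = 0.000758) and Igfbp6 (adjusted p = 0.0108), when 49.3% did. A dependence of the difference between injuries on time passed for 0 of the 7 genes, with 0 at an unadjusted p under 0.05, when 0.589% of all probe sets passed, and for 0 of 7 without sample 436, with 1 at an unadjusted p under 0.05, when 4.45% passed. It did pass without sample 436 for the dimmer probe sets of Igf1 (adjusted p = 0.0406) and Igfbp4 (adjusted p = 0.0132).

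Among themselves, the genes fell into few similar courses over the 9 group means. With all arrays Igfbp7 correlated at 0.866 with Igfbp3 and at 0.808 with Igfbp6, and the dimmer probe sets of Igf1 and Igfbp4 correlated at 0.826. Without sample 436 these were 0.834, 0.797 and 0.848. With all arrays the highest correlation of Igf1r with another probe set of the genes was 0.333, with Igfbp3. Its lowest were -0.461 with the dimmer Igf1 probe set and -0.384 with the dimmer Igfbp4 probe set. Without sample 436 these 2 were -0.546 and -0.470. These are descriptions over 9 group means, with all genes read on the same arrays.

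The genes whose course over the 9 group means was most like that of each member were listed by Pearson's r with all arrays. They were the 3 highest of 6918 genes for each probe set, without a p-value. The highest of so many values over only 9 means can be large without a link between the genes, which was not tested. For Igfbp6 they were Dcn, a fibroblast proteoglycan (0.952), Prrx1 (0.903) and Tnxb (0.901). For Igfbp7 they were Pdlim1 (0.918), the laminin chain Lama4 (0.911) and the basement membrane collagen Col4a1 (0.896), and for Igfbp3 they were Pi4ka (0.894), Ltb (0.890) and the adhesion molecule Mcam (0.889). For the brighter Igf1 probe set they were Rora (0.963), Ndufv3 (0.959) and Ruvbl1 (0.956), and for its dimmer probe set Baiap2l1 (0.972), the leukocyte receptor Ly9 (0.960) and Nbl1 (0.952). For Igfbp2 they were Igtp (0.906), Tro (0.904) and Hebp1 (0.904), for Igf1r Nhsl2 (0.881), Spout1 (0.842) and Srp54b (0.838), and for the brighter Igfbp4 probe set Map3k11 (0.915), Fnbp1 (0.907) and Cachd1 (0.896). The dimmer Igfbp4 probe set was closest to Snx12 (0.977), the membrane-bound matrix protease Mmp14 (0.953) and Fzd2 (0.952). Several of these names rest on sample 436. Without it the list of the brighter Igf1 probe set became Tle4 (0.960), Pde6a (0.955) and Clcn2 (0.947), with none of the 3 shared, and that of Igfbp3 became Mcam (0.945), Srsf10 (0.855) and Col4a1 (0.852). Cd72 (0.970) took the place of Nbl1 for the dimmer Igf1 probe set, Fstl1 (0.962) that of Snx12 for the dimmer Igfbp4 probe set and Cma2 (0.895) that of Lama4 for Igfbp7. Dhx32 (0.862) replaced Spout1 for Igf1r, Ppfia4 (0.929) replaced Tro for Igfbp2 and Sart1 (0.883) replaced Fnbp1 for the brighter Igfbp4 probe set. For Igfbp6 the same 3 genes remained, Dcn (0.915), Tnxb (0.900) and Prrx1 (0.899).

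Other genes of the pathway were taken from 3 lists. Their counts stand against shares of all probe sets called, with all arrays, of 4.85%, 14.2%, 17.9% and 5.29% over the 4 times after freeze and 1.87%, 1.79%, 8.25% and 0.537% after contraction. Without sample 436 those shares were 11.4%, 26.8%, 42.4% and 19.5% after freeze and 3.36%, 4.33%, 22.8% and 3.03% after contraction. Of 12 other genes, most of them ligands, carriers, proteases and receptors, 6 were tested. With all arrays 2 rose and 0 fell after freeze at 7 days, 0 rose and 2 fell after freeze at 3 days, 1 rose after contraction at 3 days and 1 after contraction at 7 days, and 0 were called at the other times. Without sample 436, after freeze 1 fell at 1 day (Ghr, the growth hormone receptor), 2 rose and 3 fell at 3 days and 3 rose at 7 days, while after contraction 1 rose and 1 fell at 3 days and 2 rose at 7 days. Igf2, the second IGF ligand, averaged 5836 after freeze at 7 days and 3990 after contraction at 7 days, against 600.6 in control muscle, differences of 3.25 ± 0.35 (limma, adjusted p = 1.51e-05) and 2.64 ± 0.32 (adjusted p = 7.95e-05). Igfbp1, a binding protein known mainly from liver, averaged 23.9 after freeze at 3 days, against 61.3 in control muscle, a difference of -1.15 ± 0.40 (adjusted p = 0.049), or -1.56 ± 0.40 without sample 436 (adjusted p = 0.00319).

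Of 26 genes of signalling downstream of the receptor, 20 were tested. With all arrays 4 rose and 1 fell after freeze at 6 hours, 2 rose and 1 fell at 1 day, 1 rose and 4 fell at 3 days, and none was called at 7 days. After contraction 1 rose at 6 hours, 1 rose and 1 fell at 1 day, 2 rose and 1 fell at 3 days, and none was called at 7 days. Without sample 436, after freeze 6 rose and 3 fell at 1 day, 5 rose and 7 fell at 3 days, and 2 rose and 1 fell at 7 days. After contraction 1 rose and 2 fell at 1 day, 2 rose and 4 fell at 3 days and 1 fell at 7 days, and the counts at 6 hours stayed the same in number after either injury. Socs3, a feedback inhibitor of cytokine signalling, averaged 638.8 after freeze at 6 hours, against 50.5 in control muscle, a difference of 3.35 ± 0.35 (limma, adjusted p = 1.08e-06). Irs2, an adaptor of the insulin and IGF1 receptors, averaged 45.9 after freeze at 1 day, against 244.1 after freeze at 6 hours, a difference of -2.29 ± 0.53 (adjusted p = 0.0193). At 6 hours Irs2 had been 2.14 ± 0.53 above control (adjusted p = 0.0182).

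Of 10 targets of the FoxO factors, which AKT signalling restrains, 7 were tested. With all arrays 2 rose after freeze at 6 hours, 2 rose and 1 fell at 1 day, 1 rose and 1 fell at 3 days, and 1 fell at 7 days. After contraction 2 rose at 6 hours, 2 at 1 day, 3 rose and 2 fell at 3 days, and none was called at 7 days. Without sample 436, after freeze 3 rose and 1 fell at 1 day, 2 rose and 2 fell at 3 days and 2 rose and 2 fell at 7 days. After contraction 3 rose and 1 fell at 1 day and 1 rose and 1 fell at 7 days, and the other counts were as large as with all arrays. Gadd45a, a stress-induced growth arrest gene, was 2.46 ± 0.45 above control after freeze at 6 hours (limma, adjusted p = 0.00124). Bnip3, a mitophagy receptor, was lower after contraction at 3 days, by -1.78 ± 0.36 (adjusted p = 0.00646).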

How the data were processed

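RNA of 25 muscle samples was measured on Affymetrix U74Av2 arrays, 1 sample per array. Per the submitters' processing notes, the authors computed signals with MAS5, whose version is not given in the sources used here. The deposited values are linear intensity signals, and the trimmed mean of each array was 150.09 to 150.13. From these values log2(signal + 13) was computed, where 13 is the 20th percentile of all signals. A probe set was tested where 2 or more arrays gave it a signal over their own 40th percentile, and 66 control probe sets were left out. Of 12488 probe sets, 10833 had 1 gene symbol in the platform annotation, 396 several and 1193 none. One limma (3.58.1, R 4.3.3) fit over the 9 groups, with 16 residual degrees of freedom, gave all contrasts, with Benjamini-Hochberg adjustment within a comparison over all probe sets tested and a threshold of 0.05. Comparisons were each injured group against control, freeze against contraction at each time, and neighbouring times. Genes other than the members were named as the 3 most like each member by Pearson's r over the 9 group means, and as the largest called rise and fall of each pathway list. Members and lists were chosen with earlier results of these data known. As 7 of the 8 genes were measured, 56, 28 and 42 pairs were counted. The fit was tested on simulated data. Alternatives were pseudocounts of 1 and 50, no filter, a stricter filter, quantile normalization, arrays centred on their median, and limma's robust option. The others were the next probe set, a fit of only the groups compared, and leaving out each array. Promoter windows are from RefSeq (GRCm38.p6). No 2 arrays were identical.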

Additional observations from a re-analysis of the deposited data

Results flagged for a closer look

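The difference between freeze and contraction passed its own test, without sample 436, in 7 of 40 pairs of probe set and time. These were 3 of 10 probe sets at 3 days, when 16.9% of all probe sets passed, and 4 of 10 at 7 days, when 7.27% did. At 6 hours and 1 day 0 of 10 passed, when 2.36% and 10.1% of all did. For the dimmer Igf1 probe set it was 1.93 at 3 days and 2.17 at 7 days, on the log2 scale as freeze minus contraction. For the dimmer Igfbp4 probe set it was 1.17 at 3 days and 1.93 at 7 days. Igfbp2 differed by 1.60 at 3 days, the second Igfbp3 probe set by 1.99 at 7 days, and Igfbp6 by 1.55 at 7 days. None of these passed with all 25 arrays by limma.

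The test of whether the difference between the injuries depended on time passed, without sample 436, for 2 of the 10 probe sets, when 4.45% of all did. They were the dimmer probe sets of Igf1, with an F of 7.23, and of Igfbp4, with an F of 9.93.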

How the results depend on the processing

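Of the 2 calls against control, 1 was left with a pseudocount of 1 and 1 with no filter on low values, and fitting only the groups compared gave 4. Neither of the 2 was left with the next probe set, where Igfbp3 had an adjusted p of 0.121 at 1 day and 0.137 at 7 days (limma). Leaving out 1 array in turn gave 1 to 4. Between the injuries the count of 0 became 1 with a pseudocount of 50 and 3 when only the groups compared were fitted, and was 0 to 2 when leaving out 1 array. Between neighbouring times it became 1 with a pseudocount of 50 and was 0 to 2 when leaving out 1 array. The test of any change, 2 genes, gave 4 with the next probe set and 1 to 3 when leaving out 1 array, and the test of injury by time gave 0 throughout. With the next probe set the difference between freeze at 3 days and control turned to 2.32 for Igf1 and to 1.56 for Igfbp4, both called. That of Igfbp4 after freeze at 7 days was then also called, at 2.58. The causes were not tested.

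Igfbp6, freeze minus contraction at 7 days, was called at 1.35 with a pseudocount of 50 (limma, adjusted p = 0.0452). For Igfbp4, with sample 421 of contraction at 1 day left out, freeze minus contraction at 1 day was 1.85 (adjusted p = 0.0165), with 1 contraction array that is assumed to vary like the other groups. Of 1116 values under other settings, 1101 kept their side of the threshold with no turn of a called value, and of 3150 with 1 array left out, 3132 did. Among these, 26 and 82 uncalled values changed sign. No paired analysis was possible because the groups compared share no sample numbers. Most freeze samples carry the number after that of a contraction sample of the same time, which the labels do not explain, and this was not taken as a pairing.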

Other observations

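The one probe set that names Igfbp5 is annotated to Tmem119 as well, so its signal cannot be assigned to either gene. It read 667.4, 1523.3 and 446.8 after freeze at 6 hours and 516.1, 672.1 and 633 after freeze at 1 day, against 1188.4, 2419.9 and 2059.1 in control muscle. All 3 arrays of freeze at 1 day lay below every control. With all arrays the differences were -1.22 and -1.56 (limma, adjusted p = 0.0443 and 0.0054). After freeze at 7 days it read 3625.5 and 3162.6, above every control, and after contraction at 1 day 653.4 and 804.1, below every control.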
